A study of Bos taurus with 61 samples.

Results

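The ovary of heifers was compared after and before puberty, using the mean expression of each gene in 4 POST and 4 PRE libraries, out of 61 libraries of 8 tissues in the series. All animals were Brangus, a Brahman and Angus composite breed, and each library came from a different heifer, so that no animal was sampled in both stages. POST heifers were killed in the luteal phase, and their samples held luteal tissue as well as follicles. PRE samples came from ovaries without a corpus luteum. The comparison therefore sets ovary with luteal tissue against ovary without it, and puberty, age and the presence of a corpus luteum cannot be told apart.

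After ovulation the granulosa and theca cells of the ruptured follicle turn into the luteal cells of the corpus luteum. These cells take up lipoprotein cholesterol, move it into mitochondria with the carrier StAR, and convert it to pregnenolone and then to progesterone. In ruminants luteal cells also make oxytocin, and the corpus luteum is broken down by prostaglandin F2α from the uterus, which acts through the receptor PTGFR.

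Of 24616 genes, 15540 had a mean RPKM (reads scaled to transcript length and to the mapped reads of the library) of at least 0.2 in the POST or the PRE ovary. Of these, 497 were set aside because the POST pituitary gland had at least 5 times the level of both ovary means, which left 15043 genes. Near the 0.2 limit, DOK7 was kept at 0.072 in POST and 0.2 in PRE ovary, and NPSR1 was left out at 0.199 in POST and 0.103 in PRE ovary. Near the pituitary limit, among named genes with at least 1 RPKM in POST ovary, GALNT3 was kept with 4.97 times its higher ovary mean in POST pituitary gland, and CPXM2 was set aside with 5.01 times. Only group means were used, so no value per heifer, error or p-value stands beside any result, no difference could be set against the spread between heifers, and genes were counted by size alone. Differences between the stages are given as log2 of POST over PRE mean RPKM, after adding 0.2 to both means, and a difference of 2 on this scale is 4-fold. Summed over genes, mean unique reads came to 23512141 in POST and 20440401 in PRE ovary.

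By this rule 89 genes were at least 4-fold higher in POST ovary (0.592% of those compared) and 87 were at least 4-fold lower (0.578%). A further rule of 2-fold gave 351 higher (2.33%) and 376 lower genes (2.5%), and 95.2% of genes lay within 2-fold. Among named genes with at least 1 RPKM in either stage, the 4-fold limit lay between FBP1, a gluconeogenic enzyme with a difference of 2.02, and QPCT, with 1.94, and on the lower side between ECT2L, with -2.01, and VWA3A, with -1.97. The median difference over all compared genes was -0.06. With CPM, the mean unique reads scaled to their group total, in place of RPKM, 117 genes were higher and 65 lower, of which 84 and 48 were among those counted by RPKM. The plot of POST against PRE levels shows both directions. Of the genes higher in POST ovary, 33 reached an RPKM of 10 there and 13 an RPKM of 100, of which 5 were in the list of pituitary transcripts described later. Over the 43 higher genes with a lower mean in POST pituitary gland, the median in POST ovary was 13.1 RPKM. Over the other 46 it was 2.97 RPKM. This split uses the POST ovary mean, which by itself favours a higher median in the 43. Of the lower genes 9 reached 10 RPKM in PRE ovary, and their median was 2.3 RPKM there.

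**Figure D1:**
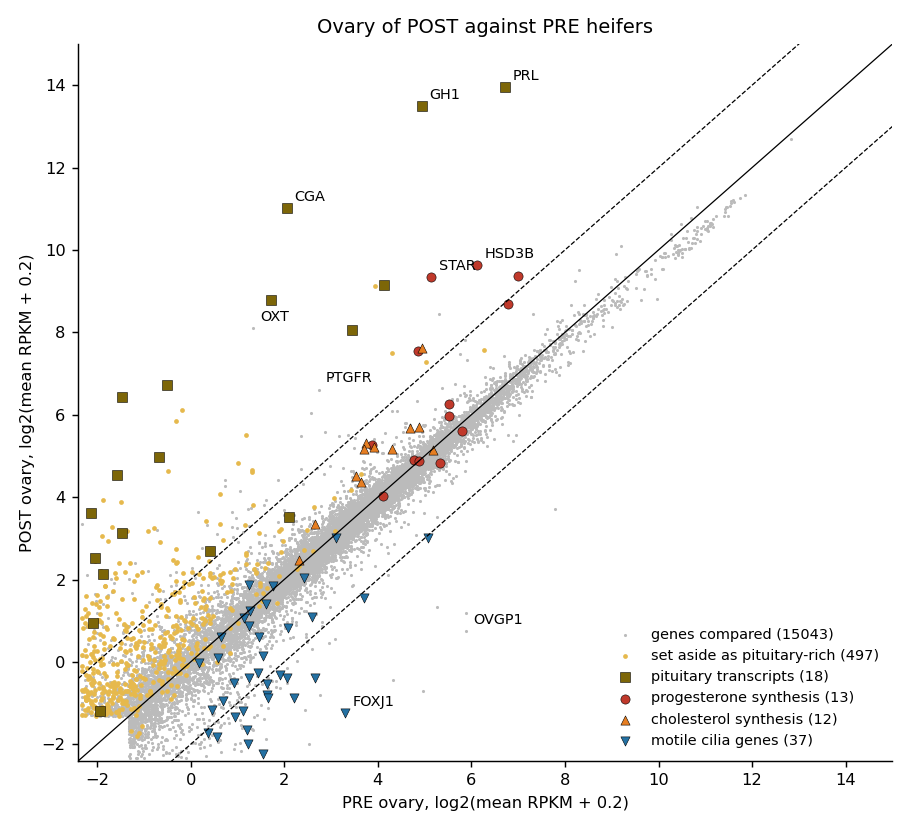
Mean RPKM of each gene in POST ovary (vertical axis) against PRE ovary (horizontal axis), both as log2 after adding 0.2, for the 15043 genes compared (grey) and the 497 set aside (yellow), with 4 gene lists marked; the solid line marks equal means and the dashed lines 4-fold. Pituitary transcripts and 10 of the 13 genes of progesterone synthesis lie above the line of equality, and motile cilia genes lie mostly below.

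Of 13 genes of progesterone synthesis, 4 were at least 4-fold higher in POST ovary (0.592% of all genes), and 7 lay within 2-fold, 3 of these below equality. STAR, the carrier that brings cholesterol into mitochondria (chromosome 27, 33016930 to 33024353 in UMD3.1), had 652 RPKM in POST and 35.2 RPKM in PRE ovary, an 18.5-fold ratio and a difference of 4.20. HSD3B, the enzyme that turns pregnenolone into progesterone (chromosome 3, 23813912 to 23823807), had 797 RPKM in POST and 69.5 RPKM in PRE ovary, a ratio of 11.5. CYP11A1, the side-chain cleavage enzyme that makes pregnenolone, had 660 RPKM in POST and 127 RPKM in PRE ovary, a ratio of 5.19. The electron carrier that serves CYP11A1, FDX1, had 186 RPKM in POST and 28.9 RPKM in PRE ovary. These were the 4 members past 4-fold, and all 4 stayed past it with 1 RPKM added.

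SCARB1, which takes up cholesterol from high-density lipoprotein, had 414 RPKM in POST and 110 RPKM in PRE ovary, a difference of 1.90 that lay just short of 4-fold. Together STAR, CYP11A1, HSD3B, FDX1 and SCARB1 made up 0.608% of the summed RPKM in POST ovary and 0.0794% in PRE ovary. Of the members within 2-fold, FDXR, the reductase that feeds FDX1, stood at 76.6 RPKM in POST and 45.4 RPKM in PRE ovary, and the transcription factor NR5A1 at 62.5 RPKM in POST and 45.4 RPKM in PRE ovary. NR5A2, its close relative, was at 29.9 RPKM in POST and 27.1 RPKM in PRE ovary, and TSPO, a protein of the outer mitochondrial membrane, at 28.3 RPKM in POST and 39.9 RPKM in PRE ovary. In the other 7 tissues the median difference of the progesterone list lay between -0.32 in uterus and 0.25 in adipose tissue, against 0.75 in ovary. In adipose tissue 2 of the 12 listed genes that reached 0.2 RPKM were at least 4-fold higher, CYP11A1 with 1.37 RPKM in POST and 0.087 RPKM in PRE adipose tissue and HSD3B with 1.15 RPKM in POST and 0.113 RPKM in PRE adipose tissue. The share of all genes past 4-fold in adipose tissue was not computed, so this count has no background.

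Cholesterol-making enzymes were higher in POST ovary as a group. Of 12 gene models, 11 were above and 1 below equality, where 41.2% of all genes were above it, with a median difference of 0.92. Of the 12, 8 lay within 2-fold and 4 were at least 2-fold higher (2.33% of all genes), 1 of these at least 4-fold (0.592%). HMGCS1, which makes the HMG-CoA that enters the mevalonate pathway, was the member past 4-fold, with 197 RPKM in POST and 30.6 RPKM in PRE ovary. Past 2-fold were also DHCR7, which makes cholesterol from its last precursor (39.6 RPKM in POST and 13.3 RPKM in PRE ovary), NSDHL (35.7 RPKM in POST and 12.9 RPKM in PRE ovary) and CYP51A1 (37 RPKM in POST and 14.9 RPKM in PRE ovary), both sterol-demethylating enzymes. The regulator SREBF2, with 35 RPKM in POST and 36.2 RPKM in PRE ovary, was nearly level, while INSIG1, which holds sterol regulation in the endoplasmic reticulum, had 22.6 RPKM in POST and 11.4 RPKM in PRE ovary. Endometrium showed a median of 1.46 for the same list. There 9 of 12 models were at least 2-fold higher in POST, against 8.82% of the genes compared in ovary. Medians in the other tissues lay between -0.40 and 0.24.

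Among genes of cholesterol uptake, storage and traffic, 3 of 14 were at least 2-fold higher (2.33% of all genes) and none lower. Beside SCARB1 they included APOA1, the main protein of high-density lipoprotein, with 736 RPKM in POST and 314 RPKM in PRE ovary. STARD4, a cytosolic cholesterol carrier, had 10.8 RPKM in POST and 5.59 RPKM in PRE ovary, and PLIN2, a lipid droplet coat protein, 67.9 RPKM in POST and 43 RPKM in PRE ovary. FABP3, which binds fatty acids in the cytosol, lay past 4-fold with 119 RPKM in POST and 7.76 RPKM in PRE ovary.

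**Figure D2:**
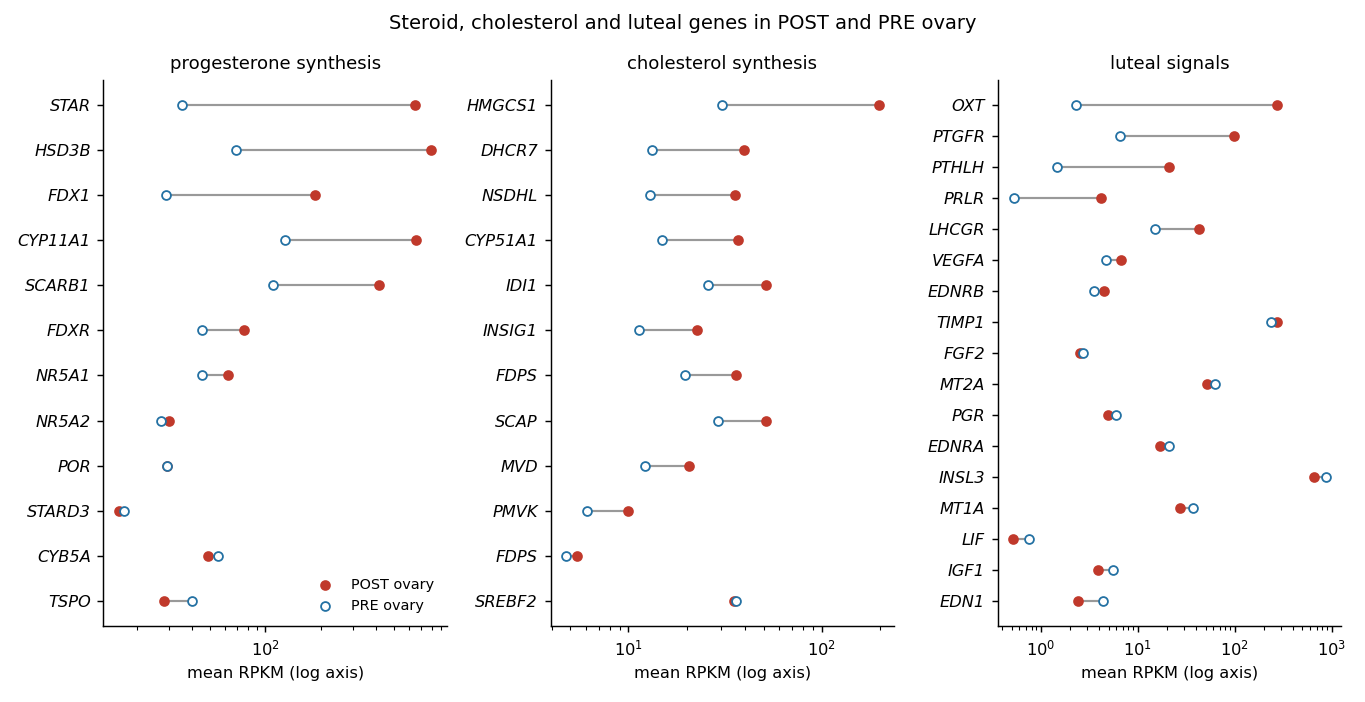
Mean RPKM on a log axis in POST ovary (filled red) and PRE ovary (open blue) for genes of progesterone synthesis, cholesterol synthesis and luteal signals, ordered by difference. STAR lies at 652 RPKM in POST and 35.2 RPKM in PRE ovary, and the genes at the bottom of each panel lie within 2-fold of equality.

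Among the peptides and receptors of luteal cells, the oxytocin gene had the largest difference (6.77) of all compared genes outside the pituitary list. OXT, which encodes oxytocin and its carrier neurophysin (chromosome 13, 52575278 to 52576188), had 275 RPKM in POST and 2.31 RPKM in PRE ovary, a 119-fold ratio, on 3359 mean unique reads in POST and 22.75 in PRE ovary. In POST pituitary gland OXT was at 0.889 RPKM, and among all groups only the hypothalamus exceeded the POST ovary. PTGFR, the receptor for the luteolytic prostaglandin F2α, had 97.4 RPKM in POST and 6.49 RPKM in PRE ovary, a ratio of 15.0. PTHLH, the parathyroid hormone-like peptide, had 21.1 RPKM in POST and 1.46 RPKM in PRE ovary.

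The receptors for luteinizing hormone, prolactin and growth hormone were also higher. LHCGR, the receptor for luteinizing hormone, had 42.3 RPKM in POST and 15 RPKM in PRE ovary, a difference of 1.48. PRLR, the prolactin receptor, had 4.14 RPKM in POST and 0.532 RPKM in PRE ovary, a difference of 2.57, or 1.75 with 1 RPKM added in place of 0.2, and POST pituitary gland had 9.46 RPKM of it. GHR, the growth hormone receptor, had 11.1 RPKM in POST and 5.2 RPKM in PRE ovary. Receptors for ovarian steroids lay near equality: ESR1 had 8.16 RPKM in POST and 8.69 RPKM in PRE ovary, ESR2 5.48 RPKM in POST and 5.4 RPKM in PRE ovary, and PGR, the progesterone receptor, 4.87 RPKM in POST and 5.94 RPKM in PRE ovary. Of 17 luteal signals 4 were at least 4-fold higher (0.592% of all genes) and none lower, or 3 with 1 RPKM added, and the median difference of the list was -0.10, close to that of all genes. VEGFA, the main growth factor of new vessels, lay within 2-fold, with 6.78 RPKM in POST and 4.71 RPKM in PRE ovary. EDN1, a vasoconstrictor, did too, with 2.43 RPKM in POST and 4.34 RPKM in PRE ovary. The 13 other prostaglandin genes lay within 2-fold, with PTGDS, a prostaglandin D synthase, at 125 RPKM in POST and 233 RPKM in PRE ovary.

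Further genes past 4-fold were in none of the lists above. BPIFC, of the family of lipid-binding BPI proteins, had 9.92 RPKM in POST ovary and was listed at 0 in PRE ovary, where 13.5 mean unique reads were assigned to it against 584.25 in POST ovary, so no fold is given. TNN, the matrix protein tenascin-N, had 9.01 RPKM in POST and 0.407 RPKM in PRE ovary. Further genes, chosen after their values were seen, were GLDN, the matrix protein gliomedin, with 19.1 RPKM in POST and 1.46 RPKM in PRE ovary, and ESM1, a proteoglycan secreted by endothelial cells, with 12.3 RPKM in POST and 0.919 RPKM in PRE ovary. MRAP, which carries the melanocortin receptor for ACTH to the cell surface, had 5.06 RPKM in POST and 0.236 RPKM in PRE ovary, and IBSP, bone sialoprotein, had 3.55 RPKM in POST and 0.119 RPKM in PRE ovary. WBSCR22, a methyltransferase that acts on ribosomal RNA, reached 346 RPKM in POST and 39.3 RPKM in PRE ovary. MRAP, IBSP and WBSCR22, like GLDN and ESM1, lay past the 15 named genes furthest apart and were chosen after their values were seen. POST pituitary gland held less than POST ovary of each of these 7 genes. Genes of similar difference with more in POST pituitary gland, such as EYA1 and SOX2, were not chosen. Of all 89 higher genes, 46 had a POST pituitary mean at or above their POST ovary mean.

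Genes that follow the ovulatory surge were mostly level, but 2 of 14 were at least 4-fold higher (0.592% of all genes). TNFAIP6, which links hyaluronan in the expanding cumulus, had 13 RPKM in POST and 2.13 RPKM in PRE ovary, and EREG, an EGF-like growth factor, had 1.91 RPKM in POST and 0.094 RPKM in PRE ovary. With 1 RPKM added EREG differed by 1.41, short of 4-fold. PTX3, another matrix protein of the cumulus, stood at 3.4 RPKM in POST and 6.07 RPKM in PRE ovary. Of 23 antioxidant genes 2 were at least 2-fold higher (2.33% of all genes): SOD2, the mitochondrial superoxide dismutase, with 101 RPKM in POST and 41.3 RPKM in PRE ovary, and GSTA3, a glutathione transferase known in humans for isomerizing steroid intermediates, with 6.72 RPKM in POST and 2.2 RPKM in PRE ovary. By CPM the difference of GSTA3 was 0.74, under 2-fold. GSTA1, its abundant relative, was level at 1573 RPKM in POST and 1427 RPKM in PRE ovary.

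Follicle genes differed little between the stages. All 16 granulosa cell genes and all 7 theca cell genes lay within 2-fold, where 95.2% of all genes lay, with median differences of -0.24 and -0.16. INHA, the inhibin alpha subunit, had 495 RPKM in POST and 537 RPKM in PRE ovary, and INHBA, a beta subunit shared by inhibin and activin, had 161 RPKM in POST and 131 RPKM in PRE ovary. FSHR, the receptor for follicle-stimulating hormone, had 16.8 RPKM in POST and 16.3 RPKM in PRE ovary. FOXL2, a transcription factor that keeps granulosa identity, had 17.1 RPKM in POST and 20.3 RPKM in PRE ovary. WT1, a transcription factor of granulosa and surface cells, was lowest in difference (-0.95), with 16.4 RPKM in POST and 31.9 RPKM in PRE ovary.

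All 4 compared enzymes of androgen and estrogen synthesis were above equality by RPKM (41.2% of all genes), 3 of them within 2-fold. By CPM 2 of the 4 were above and CYP17A1 differed by -0.22. The member past 2-fold (2.33% of all genes) was AKR1C3, an aldo-keto reductase that acts on steroids, with 1.09 RPKM in POST and 0.381 RPKM in PRE ovary. CYP17A1, the theca enzyme that makes androgens, had 84.9 RPKM in POST and 77.5 RPKM in PRE ovary, and CYP19A1, the granulosa aromatase, had 22.7 RPKM in POST and 17.2 RPKM in PRE ovary. INSL3, the insulin-like peptide of theca cells, was among the most abundant hormone transcripts in both stages, with 664 RPKM in POST and 868 RPKM in PRE ovary. Listed genes of granulosa and theca cells were thus present in both stages. STAR, HSD3B and CYP11A1, higher in POST ovary, were also present in PRE ovary, at 35.2, 69.5 and 127 RPKM. In whole tissue, fewer cells of a type and less RNA per cell cannot be told apart.

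Oocytes are a small part of the mass of an ovary, and their transcripts were scarce in both stages. Of 31 genes with a value, 21 reached 0.2 RPKM in either stage, 7 of them above and 14 below equality, with a median of -0.26 over these 21 and -0.23 over all 31. Of all genes compared, 58.8% lay below equality. Over the 7 members that reached 1 RPKM the median was 0.10. FIGLA, a transcription factor of zona pellucida genes, had 0.087 RPKM in POST and 0.406 RPKM in PRE ovary, and was the member past 2-fold. MOS, a kinase of meiotic arrest, had 0.084 RPKM in POST and 0.322 RPKM in PRE ovary, and ZP3, a zona protein, 0.986 RPKM in POST and 1.97 RPKM in PRE ovary. Of the oocyte growth factors, BMP15 had 0.44 RPKM in POST and 0.812 RPKM in PRE ovary, and GDF9 0.479 RPKM in POST and 0.429 RPKM in PRE ovary. At these levels a change in the amount added to RPKM moved the difference of FIGLA between -0.37 and -1.73.

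**Figure D3:**
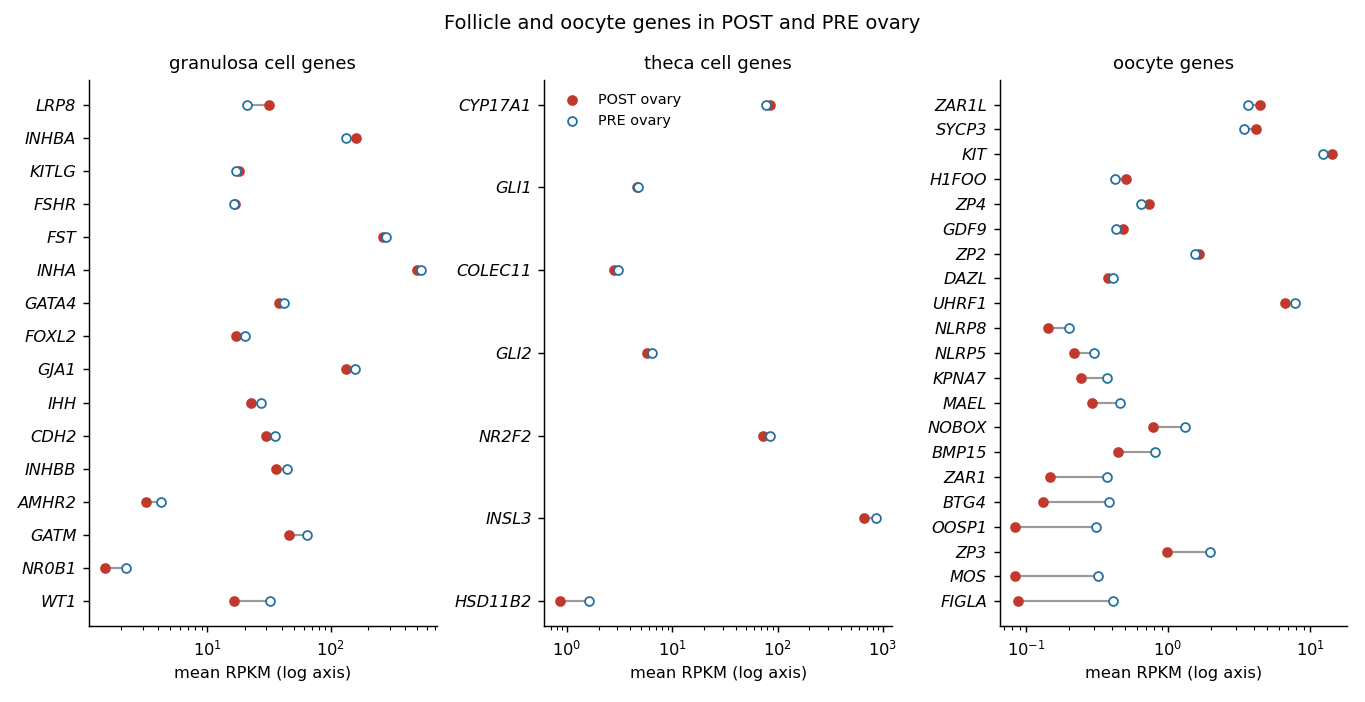
Mean RPKM on a log axis in POST ovary (filled red) and PRE ovary (open blue) for the listed granulosa, theca and oocyte genes that reached 0.2 RPKM in either stage. Granulosa and theca genes lie within 2-fold of equality at levels up to 868 RPKM, and most oocyte genes lie below 2 RPKM.

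Most listed genes of vessels, growth, matrix and immune cells lay within 2-fold, where 95.2% of all genes lay. All 25 cell cycle genes lay there, and 24 of them were lower in POST ovary (58.8% of all genes). MKI67 stood at 13.1 RPKM in POST and 13.6 RPKM in PRE ovary, and MCM2 at 17 RPKM in POST and 24.2 RPKM in PRE ovary. The same list had a median of -0.20 in ovary, -2.28 in uterus and -2.15 in endometrium. Of 25 endothelial and angiogenic genes, PLVAP, the diaphragm protein of fenestrated capillaries, stood out with 7.34 RPKM in POST and 1.81 RPKM in PRE ovary, while POST pituitary gland had 20.5 RPKM. PECAM1 (23.8 RPKM in POST and 23 RPKM in PRE ovary) and CDH5 (25.1 RPKM in POST and 23.9 RPKM in PRE ovary), both junction proteins of endothelium, were level. Of 16 genes of the IGF system, 2 were at least 2-fold higher (2.33% of all genes) and 1 was lower (2.5%). IGFBP2, a binding protein, was lower with 20.6 RPKM in POST and 47.4 RPKM in PRE ovary. PAPPA, a protease that cleaves IGF-binding proteins, was higher by RPKM, with 1.74 RPKM in POST and 0.738 RPKM in PRE ovary, but not by CPM, which gave a difference of -0.29. PAPPA2, a related protease, had 0.37 RPKM in POST and 0.031 RPKM in PRE ovary, a difference of 1.30, and 1.10 by CPM. All 23 matrix genes, all 17 macrophage and lymphocyte genes and 23 of 24 genes of the TGF-beta family lay within 2-fold.

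**Figure D4:**
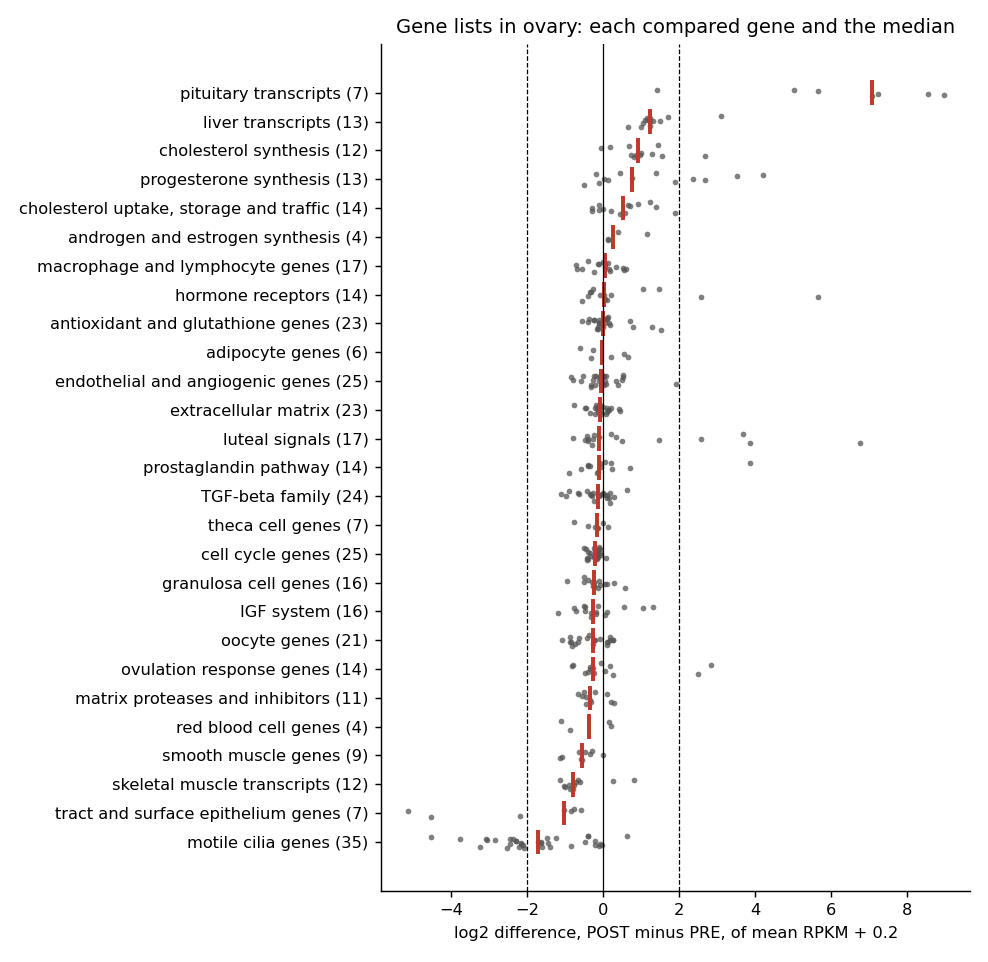
Difference of POST minus PRE ovary (log2 of mean RPKM with 0.2 added) of every compared gene in 27 lists (points, number of genes in brackets), with the median of each list as a red bar; dashed lines mark 4-fold. Most medians lie near 0, with pituitary and liver transcripts at the top and tract epithelium and motile cilia genes at the bottom.

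Transcripts of the pituitary gland were higher in POST ovary. All 18 listed pituitary genes lay above equality, 11 of them set aside and 7 compared, and as a share of their level in POST pituitary gland they ranged from 7.44% to 50.9% in POST ovary (median 13.4%) and from 0.0266% to 11.1% in PRE ovary (median 0.151%). With PRE shares of at most 11.1%, the 7 compared genes passed the 5-fold limit only through their POST ovary means. Their direction therefore followed from the limit and adds no support. PRL, prolactin, had 15908 RPKM in POST and 106 RPKM in PRE ovary and was the most abundant transcript of POST ovary. GH1, growth hormone, had 11453 RPKM in POST and 30.4 RPKM in PRE ovary, and CGA, the alpha subunit shared by the pituitary glycoprotein hormones, had 2079 RPKM in POST and 3.96 RPKM in PRE ovary. LHB, the beta subunit of luteinizing hormone, had 444 RPKM in POST and 3.08 RPKM in PRE ovary, and POMC, the precursor of ACTH, had 268 RPKM in POST and 10.7 RPKM in PRE ovary. PRL, GH1, CGA, LHB and SCG2 together took 6.84% of the summed RPKM in POST ovary and 0.0343% in PRE ovary. Which of the 4 POST libraries held these transcripts was not analysed here.

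**Figure D5:**
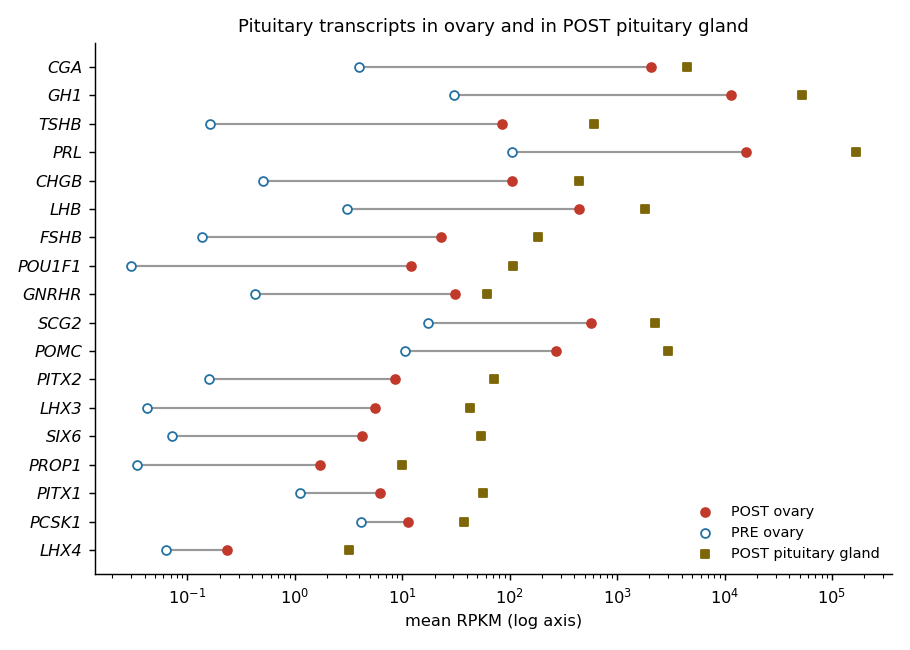
Mean RPKM on a log axis of the 18 listed pituitary transcripts in POST ovary (filled red), PRE ovary (open blue) and POST pituitary gland (squares). Every POST ovary mean lies above its PRE ovary mean and below its POST pituitary mean.

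Of the 497 genes set aside, 126 were at least 4-fold higher in POST ovary and none was at least 4-fold lower. Of the 15043 genes compared, 89 were higher by this size (0.592%) and 87 lower (0.578%). With none set aside, 215 genes were at least 4-fold higher (1.38% of 15540) and 87 lower (0.56%). Beside PRL and POMC, the set-aside genes with the highest POST ovary levels with a symbol were NNAT, with 562 RPKM in POST and 15.1 RPKM in PRE ovary, and GPX3, a plasma glutathione peroxidase, with 191 RPKM in POST and 76.7 RPKM in PRE ovary. TSHB, the beta subunit of thyrotropin, had 85.6 RPKM in POST and 0.163 RPKM in PRE ovary.

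Of the 89 higher genes, 46 had a POST pituitary mean at or above their POST ovary mean, and 43 a lower one. The first set included CGA, GH1, LHB, CHGB and SCG2, and also GNRHR, the receptor for gonadotropin-releasing hormone (31.2 RPKM in POST and 0.425 RPKM in PRE ovary, with 61.3 RPKM in POST pituitary gland), GHSR, the ghrelin receptor (2.96 RPKM in POST and 0.044 RPKM in PRE ovary), and NPPC, the precursor of C-type natriuretic peptide (3.83 RPKM in POST and 0.108 RPKM in PRE ovary). Of the 43 others, 24 had their highest mean of all 16 groups in POST ovary. Among all 9538 compared genes with a lower mean in POST pituitary gland than in POST ovary, 6.01% did. The 43 were also chosen for a higher mean in POST than in PRE ovary, so these shares are not alike. The 24 included STAR, HSD3B, CYP11A1, FDX1, PTGFR, PTHLH, HMGCS1, FABP3, TNN, GLDN, ESM1, MRAP and WBSCR22.

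Genes made by the liver were higher in POST ovary too. Of 13 compared, 11 were at least 2-fold higher (2.33% of all genes) and 13 above equality (41.2% of all genes), with a median of 1.23. The 13 included APOA1, counted above with cholesterol traffic, which had a higher mean in POST ovary than in POST liver. APOA1 itself differed by 1.23. FGG, a fibrinogen chain, had 17.7 RPKM in POST and 1.89 RPKM in PRE ovary, ALB, albumin, had 36.1 RPKM in POST and 11 RPKM in PRE ovary, and FGA, another fibrinogen chain, had 4.52 RPKM in POST and 1.8 RPKM in PRE ovary. In adipose tissue the same list had a median of 6.0. The part of RNA from other tissues in these differences was not tested.

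Of the 87 genes at least 4-fold lower in POST ovary, 17 were in a list of motile cilia genes and 3 in a list of tract and surface epithelium genes, with FOXJ1 in both, and most were in neither. Motile cilia are moved by dynein arms on a frame of microtubules, and FOXJ1 is the transcription factor that turns on their genes. OVGP1, the glycoprotein secreted by the oviduct (chromosome 3, 32047399 to 32059347), had 1.48 RPKM in POST and 59 RPKM in PRE ovary, a difference of -5.13 and a 39.7-fold ratio. PRE ovary had the highest OVGP1 mean of all 16 groups. FOXJ1 (chromosome 19, 56171932 to 56175103) had 0.225 RPKM in POST and 9.64 RPKM in PRE ovary, on 20.5 mean unique reads in POST and 530.75 in PRE ovary.

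A list of motile cilia genes was put together after these values were seen. Of its 35 compared genes 17 were at least 4-fold lower (0.578% of all genes) and none higher. Below equality were 34 of the 35 (58.8% of all genes), and the median was -1.72. With 1 RPKM added in place of 0.2 the median was -1.07 and 3 of the 35 were at least 4-fold lower, FOXJ1, DRC1 and ZMYND10, and by CPM 7 were. RIBC2, a protein inside ciliary microtubules, had 0.013 RPKM in POST and 2.71 RPKM in PRE ovary. DRC1, of the complex that governs dynein, had 0.345 RPKM in POST and 4.44 RPKM in PRE ovary. ZMYND10, which is needed to assemble dynein arms, had 0.568 RPKM in POST and 6.13 RPKM in PRE ovary. WDR69, needed to bring them into the cilium, had 0.051 RPKM in POST and 2.15 RPKM in PRE ovary. GAS2L2, which organises the microtubules at the base of cilia and is outside the list, had 0.031 RPKM in POST and 1.71 RPKM in PRE ovary. With 1 RPKM added the differences of RIBC2, WDR69 and GAS2L2 were -1.87, -1.59 and -1.40, short of 4-fold. RSPH9, of the radial spokes, was the list member above equality, with 3.46 RPKM in POST and 2.16 RPKM in PRE ovary.

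Of 9 tract and surface epithelium genes 2 were set aside, and all 7 compared were below equality (58.8% of all genes). Of the 7, 3 lay within 2-fold and 3 were at least 4-fold lower (0.578% of all genes). The 3 were OVGP1, FOXJ1 and MUC1, a mucin of epithelial surfaces with 0.146 RPKM in POST and 1.37 RPKM in PRE ovary. With 1 RPKM added MUC1 differed by -1.05, which left 2 of the 7 past 4-fold. KRT19, a keratin of simple epithelia, had 14.3 RPKM in POST and 21.6 RPKM in PRE ovary, and EPCAM, an adhesion molecule of epithelia, was set aside with 9.05 RPKM in POST and 5.43 RPKM in PRE ovary.

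Other named genes among the largest negative differences were in neither list. SPDEF, a transcription factor of secretory epithelium, had 0.074 RPKM in POST and 2.87 RPKM in PRE ovary, and EHF, a related factor chosen after its value was seen, had 0.182 RPKM in POST and 2.77 RPKM in PRE ovary. TSPAN1, a tetraspanin, had 0.244 RPKM in POST and 5.28 RPKM in PRE ovary, and ANXA8, an annexin, 0.534 RPKM in POST and 19.9 RPKM in PRE ovary. KRT9, a keratin, had 0.052 RPKM in POST and 5.57 RPKM in PRE ovary, TUBA1D, an alpha tubulin that shares sequence with other tubulin genes, 2.3 RPKM in POST and 38 RPKM in PRE ovary, and SLC44A4, a choline transporter-like protein, 0.119 RPKM in POST and 2.34 RPKM in PRE ovary. REG4, a secreted lectin, had 0.373 RPKM in POST and 6.57 RPKM in PRE ovary, and LY6G6E 0.022 RPKM in POST and 1.91 RPKM in PRE ovary. With 1 RPKM added SPDEF (-1.85), EHF (-1.68), SLC44A4 (-1.58) and LY6G6E (-1.51) were short of 4-fold.

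In 79 of the 87 lower genes the endometrium of 1 stage or both had a higher mean than the ovary in either stage, against 52.1% of all genes compared. The uterus was at least 2-fold lower in POST for 64 of the 87 and at least 2-fold higher for 2, against 6.38% and 4.4% of all genes compared in ovary. The endometrium was lower by this size for 14 of the 87 and higher for 6, against 12.9% and 8.82% of all genes. For the motile cilia list the median difference was -1.59 in uterus and -0.27 in endometrium, and FOXJ1 had 4.33 RPKM in POST and 27.8 RPKM in PRE uterus. All 9 smooth muscle genes lay below equality, where 58.8% of all genes lay, and 7 of them were within 2-fold. The 2 past 2-fold (2.5% of all genes) were DES, desmin, with 21.9 RPKM in POST and 48.4 RPKM in PRE ovary, and CNN1, calponin, with 37.7 RPKM in POST and 80.7 RPKM in PRE ovary. The part of oviduct or uterine tissue in the lower genes was not tested.

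Some of the largest decreases were in gene models without a name. ENSBTAG00000024849 (chromosome 3, 8942579 to 8953702) had 0.413 RPKM in POST and 31.1 RPKM in PRE ovary, the largest negative difference of all (-5.67), and PRE ovary had its highest mean of all groups. ENSBTAG00000040367 and ENSBTAG00000047547 were at least 4-fold lower in POST in all 8 tissues, with differences of -4.07 and -4.71 in ovary. RBM44, an RNA-binding protein gene, differed by -2.82 in ovary, or -1.21 with 1 RPKM added, and was lower in POST in all 8 tissues, the smallest difference being -0.67 in liver.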

How the data were processed

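RNA of 8 ovaries was sequenced as TruSeq libraries. The authors mapped reads to UMD3.1 in CLC Genomics Workbench, and deposited the mean count of unique reads and the mean RPKM over the libraries of each tissue and stage. Both count and RPKM are the authors' means and carry no error. Ovary mean reads are whole after multiplying by 4 (tolerance 1e-06), as means of 4 libraries would be. The PRE pituitary means are too, although 3 libraries are labelled there, so this does not settle how many libraries a mean holds. RPKM is not the read count rescaled: 3235 genes in POST and 3106 in PRE ovary had reads and an RPKM of 0. The tests planned for values per library were not run.

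From the means, log2 differences (0.2 added), counts past 4-fold and list medians were computed in Python 3.11.15 with numpy 2.4.6 and pandas 2.3.3. The counting was tried on simulated data with changes far past 4-fold and no pituitary transcripts. Changes near 4-fold and the pituitary limit were not tried there. Symbols came from the deposited names (11519 genes), UniProt entry names matched on chromosome (1669), a supplementary table (809) and hand pairs (88); 10531 models had none, so lists miss members, and 8932 compared genes had a symbol. Members and lists were chosen with earlier results of these data known. The text names members of the steroid, luteal, granulosa, theca and oocyte lists, from other lists up to 6 members that were furthest apart and those that define the list, the 15 named genes furthest apart in each direction at an RPKM of 1 or more, and genes at the limits. Some further genes were chosen after their values were seen. Alternatives were other amounts added, limits on low values, a 2-fold rule, CPM, centring and other pituitary limits. Means over few libraries near 0.2 RPKM rest on few reads. A gene of the steroid list is counted but not reported by name.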

Additional observations from a re-analysis of the deposited data

How the results depend on the processing

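Genes at least 4-fold higher in POST ovary numbered 89, and 41 with 1 RPKM added, 351 at 2-fold, 215 with none set aside, 49 with genes set aside at 2 times and 43 at 1 times both ovary means, the last limit chosen after seeing the data. Genes lower numbered 87, and 13 with 1 RPKM added, 166 with 0.05 added and 376 at 2-fold. The counts under the remaining settings were within 1.5 times, and no list median past 2-fold changed sign. The share of higher genes among those counted was 50.6%, and 75.9% with 1 added, 64.3% with CPM, 71.2% with none set aside, 36% at 2 times and 34.7% at 1 times.

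Of 242 list medians recomputed, 237 moved by less than 1.5-fold. The exceptions were the pituitary list (7.08), at 6.15 with 1 added, 5.33 with none set aside and 5.65 at 2 times, where 1 gene was left, tract and surface epithelium (-1.02) at -3.36 at 1 times, and motile cilia (-1.72) at -1.07 with 1 added. The median share of pituitary levels was 13.4%, and 21.2% by CPM. Of 51 named genes past 4-fold, all kept their direction under the 4 settings tried for genes, and 39 kept the size with 1 added. By CPM LHB differed by 4.52 in place of 7.08. No paired analysis was possible because only group means were used and no heifer was sampled in both stages, and no library could be left out for the same reason. Without the motile cilia list, chosen after its values were seen, 70 lower genes remained. Low reads limit the genes near 0.2 RPKM.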

Other observations

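Ribosomal protein genes were a set taken by name after the values were seen. In POST ovary 80 of 86 gene models were lower, against 58.8% of all genes compared. The median difference of the set was -0.44, and none of it was 4-fold apart. The set made up 19.6% of the summed RPKM in POST ovary and 25.7% in PRE ovary. The median in other tissues was -1.29 in endometrium, -0.82 in pituitary gland, -0.55 in uterus, -0.08 in longissimus dorsi muscle, -0.06 in adipose tissue, -0.03 in hypothalamus and 0.03 in liver. EEF1A1, an elongation factor of translation and the most abundant transcript of PRE ovary, had 6667 RPKM in POST and 7290 RPKM in PRE ovary.

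APOA1, which the liver is known to secrete, had a higher mean in POST ovary (736 RPKM) than in POST liver (321 RPKM), while ALB had 36.1 RPKM in POST ovary and 38733 RPKM in POST liver. Skeletal muscle transcripts were lower in POST ovary in 10 of 12 gene models (58.8% of all genes), with a median of -0.78. ACTA1, skeletal actin, had 12 RPKM in POST and 22.2 RPKM in PRE ovary. INSM1, a transcription factor of endocrine cells, was set aside with 1.89 RPKM in POST ovary, a listed 0 in PRE ovary and 19.9 RPKM in POST pituitary gland.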
